A study of Mus musculus with 12 samples.

Results

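The genes described here are 45 genes of the lysosome and of autophagy, followed in B16 cells, an established mouse melanoma line, through a culture cycle in which the cells gain and lose pigment. They were chosen by name, as symbols matched through the annotation of the array's probes, and a gene counted as measured where a probe was detected (detection p under 0.05) on at least 2 of 12 arrays. On that rule 44 of the 45 were measured, among 11470 genes in all, and Atp6v0c was not analysed here. By role they comprise 6 proteins of the lysosomal membrane, 4 subunits of the proton pump (3 measured), 7 proteases, 12 glycosidases and sulfatases, 7 genes of lipid breakdown and cholesterol export, 8 autophagy genes and the transcription factor Tfeb. A further 137 genes of the same pathways were listed beside them, of which 120 were measured.

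The study followed pigment gain and loss in these cells on Illumina bead arrays of total RNA. Each of 6 days (0, 4, 8, 12, 16 and 20) had 2 arrays, called set 1 and set 2, which the series describes as consecutive cycles of the oscillation. All cells grew in medium with fetal calf serum. Per the labels' protocols, the plating density was 100 cells per cm2 until day 12, with days 4, 8 and 12 labelled pigmented. Cells were then plated again at 10000 per cm2 and taken on days 16 and 20, which were labelled depigmented, as was day 0. Pigmentation, time in culture and plating density can therefore not be told apart in most comparisons. A density label given per array did not follow that protocol: it read 10000 for both arrays of days 8 and 20 and for set 1 of days 0 and 12, and 100 for the others. Apart from the word cycle, nothing in the labels states that set 1 and set 2 were separate cultures. The p-values then cover the spread between arrays of a day alone, and that spread may be technical.

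Lysosomes are acidic compartments in which hydrolases break down proteins, sugars and lipids. A proton pump in their membrane keeps them acidic, membrane glycoproteins shield the membrane, and channels and transporters let ions and breakdown products out. Autophagy wraps cytoplasm in a membrane, the autophagosome, that fuses with the lysosome. The transcription factors Tfeb, Tfe3 and Mitf, which are relatives, bind a short DNA motif near many lysosomal genes, and in pigment cells Mitf also drives the genes of melanin synthesis. The melanosome, in which melanin is made, is an organelle related to the lysosome that uses the same proton pump and some of the same membrane proteins.

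The motif that these factors are known to bind was looked up in the promoters of the members, because the genes that carry it include members that rose and members that fell on the days labelled pigmented. Windows of 300 bases, from 250 before to 50 after a gene's start, came from RefSeq (build GRCm38.p6) for 37 of the 45 members. The letters searched were TCACGTGA, which read the same on both strands, and which contain the shorter CACGTG. The longer form stood in the windows of 7 of 37 members (18.9%), namely Mcoln1, Cln3, Atp6v0d1, Atp6v1a, Ctsd, Ctsa and Gla. Of 111 other pathway genes 10 held it (9.01%), and 304 of all 27025 genes did (1.12%). The shorter form was in the windows of 12 members (32.4%), 26 other pathway genes (23.4%) and 8.09% of all genes. A match describes letters and not a bound site. The members were chosen as lysosome and autophagy genes, and the motif is known near many lysosomal genes. A high share among them was thus likely from the choice of genes, and it is no result of these arrays. The 5 windows below are shown because these members carried the motif and rose on days 4 and 8, with the motif in capitals and each read 5′ to 3′ along the gene's strand.
Mcoln1, chr8:3500269-3500568, plus strand, motif starting 46 bases before the gene's start: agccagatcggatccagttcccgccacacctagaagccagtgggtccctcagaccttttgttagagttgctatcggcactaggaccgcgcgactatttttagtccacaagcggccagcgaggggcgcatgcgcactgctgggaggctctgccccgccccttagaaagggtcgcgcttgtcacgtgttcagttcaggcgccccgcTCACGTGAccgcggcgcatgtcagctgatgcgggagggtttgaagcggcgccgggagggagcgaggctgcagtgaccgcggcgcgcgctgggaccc
Cln3, chr7:126583187-126583486, minus strand, motif starting 122 bases before the start: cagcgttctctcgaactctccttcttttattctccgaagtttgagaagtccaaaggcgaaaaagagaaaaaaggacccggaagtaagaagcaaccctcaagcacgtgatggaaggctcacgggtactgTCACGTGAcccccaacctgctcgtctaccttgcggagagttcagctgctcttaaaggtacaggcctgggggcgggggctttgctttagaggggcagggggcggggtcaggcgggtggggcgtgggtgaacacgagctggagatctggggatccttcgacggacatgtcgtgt
Atp6v0d1, chr8:105566015-105566314, minus strand, motif starting 4 bases before the start: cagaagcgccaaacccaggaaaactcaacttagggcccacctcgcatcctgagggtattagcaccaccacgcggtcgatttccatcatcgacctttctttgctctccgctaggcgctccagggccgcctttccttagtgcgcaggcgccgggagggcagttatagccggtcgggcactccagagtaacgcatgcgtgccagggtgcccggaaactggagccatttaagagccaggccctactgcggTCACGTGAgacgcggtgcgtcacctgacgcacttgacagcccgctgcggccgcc
Ctsd, chr7:142387778-142388077, minus strand, motif starting 99 bases before the start: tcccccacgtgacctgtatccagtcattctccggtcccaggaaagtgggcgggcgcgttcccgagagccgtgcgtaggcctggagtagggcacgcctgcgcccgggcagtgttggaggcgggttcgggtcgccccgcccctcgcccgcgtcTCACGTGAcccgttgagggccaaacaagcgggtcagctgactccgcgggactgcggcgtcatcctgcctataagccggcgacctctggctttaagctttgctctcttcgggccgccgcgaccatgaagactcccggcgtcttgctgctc
Atp6v1a, chr16:44139210-44139509, minus strand, motif starting 132 bases before the start: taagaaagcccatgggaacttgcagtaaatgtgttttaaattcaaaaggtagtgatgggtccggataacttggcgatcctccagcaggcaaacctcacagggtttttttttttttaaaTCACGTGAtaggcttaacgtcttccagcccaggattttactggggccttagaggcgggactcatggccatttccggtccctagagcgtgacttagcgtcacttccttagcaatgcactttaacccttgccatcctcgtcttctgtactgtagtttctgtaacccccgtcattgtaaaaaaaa
Ctsa, which carried the same letters, fell on those days on the probe used, while 2 of its 5 detected probes were above 0 on day 8. Gla, which also carried them, was lower on day 4, at -0.43 (adjusted p = 0.0432), and had -0.37 (SE 0.18, adjusted p = 0.0795) on day 8. Its probe was detected on 0 arrays of either day and on 1 of day 0, so no size of the fall on day 4 is read. Without set 1 of day 0 or either array of day 4 that call was lost.

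Between 18508 and 19780 probes were detected per array, and the number of arrays limits the precision. Arrays of the same day correlated at 0.995 to 0.996 over the genes tested. Arrays of day 4 correlated with those of day 8 at 0.9963 to 0.9967, as closely as arrays within either day (0.9963 and 0.9958). All 7 melanocyte markers were measured, with a mean log2 level of 9.72 to 13.0 on an array, lowest on day 20 and highest on days 4 and 8. Of 10 macrophage and leukocyte markers, 3 were measured, with a mean between 4.53 and 5.54, and Ptprc, Adgre1, Csf1r, Cd14, Itgam and Cd52 were detected on 0 arrays. Among the 7 fibroblast markers 3 were measured, at a mean of 6.24 and 6.26 on day 0, 4.49 to 4.62 on days 4 and 8 and 4.96 and 5.07 on day 20. Krt1 was the measured keratinocyte marker among 4 listed, at 4.41 to 5.34. The melanocyte and fibroblast means moved with the days on which the members below moved, and their part in the results was not tested. In RNA of whole cultures, fewer cells of a type and less RNA per cell cannot be told apart.

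Nearly all members varied over the cycle. Of 44 measured, 41 changed over the 6 days, against 84.7% of all genes tested, so the share alone did not set them apart. Gla, Gabarapl2 and Tfeb did not pass the test. The day means of a member spanned between 0.30 and 2.90 log2 units (median 1.10), while the pooled SD between the 2 arrays of a day ran from 0.038 to 0.37 (median 0.091). Day 20 held the lowest mean of 15 members and the highest of 10, and day 16 held the highest of none (0).

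Against day 0, 22 members rose and 15 fell on day 4 (background, rose 29.5% and fell 34% of all genes), and 21 rose and 13 fell on day 8 (29.3% and 33.9%). On day 12, 18 rose and 14 fell (22.8% and 29.5%), and on day 16, 9 rose and 18 fell (20.9% and 26.6%). On day 20, 9 rose and 19 fell (29.3% and 38.7%). The members' median change was, in the order of the days from 4 to 20, 0.16, 0.15, 0.042, -0.14 and -0.10. Over all genes it was -0.038, -0.036, -0.056, -0.054 and -0.11. All 5 comparisons share the arrays of day 0. With arrays centred on their median in place of quantile normalization, 9 members rose and 12 fell on day 12, 3 rose and 14 fell on day 16, and 5 rose and 23 fell on day 20. Under that scaling 4527, 3990 and 7182 of 11470 genes were called on those days. The medians were -0.086, -0.109 and -0.299 for all genes and -0.053, -0.203 and -0.447 for members.

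Between neighbouring days, 0 members changed from day 4 to day 8, where 0% of all genes rose and 0% fell by limma's test after adjustment, although 157 genes were higher and 150 lower at an unadjusted p under 0.05. From day 8 to day 12, 15 members rose and 11 fell (27.2% and 26.2% of all genes). From day 12 to day 16, across the replating, 3 rose and 18 fell (20.7% and 19.7%). From day 16 to day 20, 15 rose and 16 fell (29.9% and 35%). Days 8 and 20 are both harvests 8 days after plating, at the low and the high density of the protocol. Between them 14 members rose and 21 fell on day 20 (32.9% and 35.4%). Centring on the median put 9 up and 12 down from day 8 to day 12, 8 up and 18 down from day 16 to day 20, and 9 up and 25 down between days 8 and 20. With that centring, 5050, 6502 and 7263 of 11470 genes were called in these comparisons. That scaling moved the median of all genes to -0.30 on day 20 against day 0, to -0.19 against day 16 and to -0.29 against day 8, and the members' medians to -0.45, -0.21 and -0.66.

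**Figure D1:**
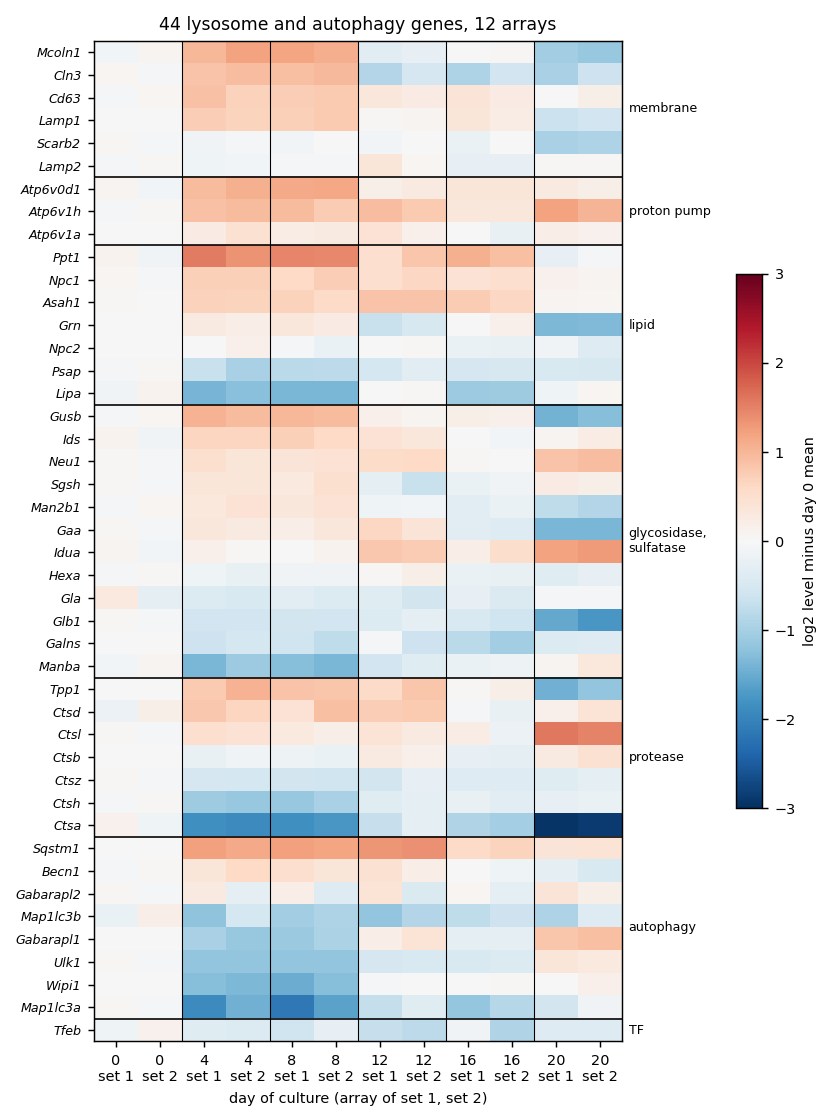
Log2 level of each of the 44 measured members (rows, grouped by role and ordered within a role by the change on day 8) on each of 12 arrays (columns, by day and set), minus the mean of the day 0 arrays (colour, log2 units). Arrays of days 4 and 8 look alike, with Ppt1 at about 1.45 above and Ctsa, Map1lc3a, Wipi1, Lipa and Manba at more than 1 below day 0, and on day 20 Ctsa stands 2.90 below.

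Most of the lysosomal membrane proteins rose on days 4 and 8, and by day 20 most had dropped below that level. Of 6, 4 rose on both days and 0 fell, with a median of 0.75 on day 4 and 0.76 on day 8. Among all genes, 29.5% rose and 34% fell on day 4, and 29.3% rose and 33.9% fell on day 8. On day 20 against day 8, 5 fell and 0 rose (35.4% and 32.9% of all genes), with a median of -1.13. Mcoln1, which encodes a cation channel that lets calcium out of the lysosome, was at 5.72 and 5.88 on day 0, 6.801 and 6.997 on day 4, 6.98 and 6.88 on day 8, 5.49 and 5.54 on day 12, 5.81 and 5.84 on day 16 and 4.76 and 4.66 on day 20. It was highest on the 4 arrays of days 4 and 8, which did not overlap with the others, and lowest on day 20, where its probe was detected on 0 of 2 arrays. It rose by 1.13 (SE 0.15, adjusted p = 6.82e-07) on day 8 and fell by 1.42 (SE 0.15, adjusted p = 4.97e-08) from day 8 to day 12. On day 20 it was at least 4.22-fold lower than on day 8 (adjusted p = 1.24e-11). Such a bound sets the mean of the detected group against the lowest detected signal of the other arrays.

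Cln3, a membrane protein whose loss causes a juvenile form of neuronal storage disease in humans, was at 5.597 and 5.47 on day 0, 6.399 and 6.45 on day 4, 6.44 and 6.51 on day 8, 4.67 and 5.03 on day 12, 4.62 and 4.97 on day 16 and 4.56 and 4.91 on day 20. Its 4 arrays of days 4 and 8 stood above all others, and those of days 12, 16 and 20 below day 0. It rose by 0.94 (SE 0.18, adjusted p = 7.76e-05) on day 8 and fell by 1.63 (SE 0.18, adjusted p = 9.75e-08) from day 8 to day 12. Its probe was detected on 1 of 2 arrays on each of days 12, 16 and 20, so these levels lie near the detection limit and no difference among them is read. Lamp1, a glycoprotein that lines the membrane, was at 11.42 and 11.38 on day 0, 12.15 and 12.07 on day 4, 12.11 and 12.197 on day 8, 11.45 and 11.48 on day 12, 11.77 and 11.62 on day 16 and 10.75 and 10.83 on day 20. Its day 20 arrays lay below all others. It rose by 0.75 (SE 0.071, adjusted p = 6.62e-09) on day 8 and fell by 1.36 (SE 0.071, adjusted p = 2.26e-13) on day 20 against day 8. Cd63, a tetraspanin of late endosomes and lysosomes that is also found on melanosomes, rose by 0.76 on day 8 and fell by 0.67 between days 8 and 20.

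Lamp2, the partner of Lamp1, did not share this course on its brightest probe, which gave 12.77 and 12.85 on day 0, 12.68 and 12.73 on day 4, 12.77 and 12.75 on day 8, 13.18 and 12.88 on day 12, 12.56 and 12.57 on day 16 and 12.85 and 12.84 on day 20. The arrays of days 0, 4 and 8 differed little, and its change on day 8 was -0.054 (SE 0.079, adjusted p = 0.578). Its 7 detected probes disagreed on that day. The next brightest gave -0.15, and the other 5 gave 0.25, 0.55, 1.60, 1.77 and 1.97. Scarb2, the receptor that carries glucocerebrosidase to the lysosome, had -0.049 (SE 0.12, adjusted p = 0.734) on day 8 and fell by 0.95 (SE 0.12, adjusted p = 2.19e-07) on day 20 against day 0.

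Genes of the proton pump rose on days 4 and 8. All 3 measured members and all 12 other measured subunits and accessory proteins, 15 of 15, rose on day 4. On day 8, 14 of 15 rose and 0 fell, and the medians were 0.74 and 0.66. The share of all genes that rose was 29.5% on day 4 and 29.3% on day 8. With arrays centred on the median, 14 of 15 rose on either day, where all genes had medians of 0.022 and 0.025. Leaving out 1 array at a time, between 12 and 15 rose on day 4, the fewest without set 2 of day 4, and 13 or 14 on day 8. Atp6v0d1, which links the membrane sector to the stalk of the pump, was at 10.63 and 10.44 on day 0, 11.49 and 11.602 on day 4, 11.68 and 11.69 on day 8, 10.71 and 10.804 on day 12, 10.89 and 10.91 on day 16 and 10.79 and 10.699 on day 20. Its arrays of days 4 and 8 stood above the others by more than the spread within any day. It rose by 1.15 (SE 0.076, adjusted p = 2.25e-11) on day 8 and fell by 0.93 (SE 0.076, adjusted p = 1.64e-09) from day 8 to day 12.

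Atp6v1h, a regulatory subunit of the cytosolic sector, followed another course, at 10.78 and 10.87 on day 0, 11.71 and 11.79 on day 4, 11.78 and 11.59 on day 8, 11.76 and 11.62 on day 12, 11.17 and 11.18 on day 16 and 12.03 and 11.85 on day 20. It rose by 0.86 (SE 0.081, adjusted p = 6.46e-09) on day 8 and differed by 0.004 (SE 0.081, adjusted p = 0.973) between days 8 and 12. From day 12 to day 16 it fell by 0.51, and under quantile normalization it was highest on day 20, 1.11 above day 0 (SE 0.081). Its other detected probe, of a lower level, gave -0.646 from day 8 to day 12 and 0.246 from day 12 to day 16. With the mean of its probes these steps were -0.32 (adjusted p = 0.00649) and -0.13 (adjusted p = 0.255). The course of Atp6v1h between days 8 and 16 was thus seen on the probe used alone. Atp6v1a, the catalytic subunit that splits ATP, changed less, by 0.35 on day 4 and 0.24 on day 8. Among the other subunits, Atp6v1c1, the C subunit that joins the sectors, rose by 1.69 (SE 0.101, adjusted p = 3.93e-12) on day 8. The 1 pump gene not called on day 8 was Tcirg1, a membrane subunit known from osteoclasts, at 0.17, named after its value was seen.

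On day 20 against day 8, pump genes fell more often than they rose. Of 15, 9 fell and 4 rose (median -0.52), against 35.4% and 32.9% of all genes. With arrays centred on the median, 11 fell and 0 rose, with a median of -1.137. That scaling also shifted all genes, to a median of -0.286, with 7263 of 11470 called. Atp6v0d1 fell by 0.94 and Atp6v1c1 fell by 1.45, while Atp6v1h rose by 0.26 under quantile normalization and was at -0.35 (adjusted p = 0.0631) under median centring. Among all 18 measured membrane proteins and transporters, the 6 members included, 10 fell and 3 rose in the same comparison, or 14 and 1 under median centring. Ctns, the cystine exporter of the lysosome, rose by 1.83 (SE 0.102, adjusted p = 1.54e-12) on day 8 and fell by 2.15 (SE 0.102, adjusted p = 5.25e-14) between days 8 and 20.

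**Figure D2:**
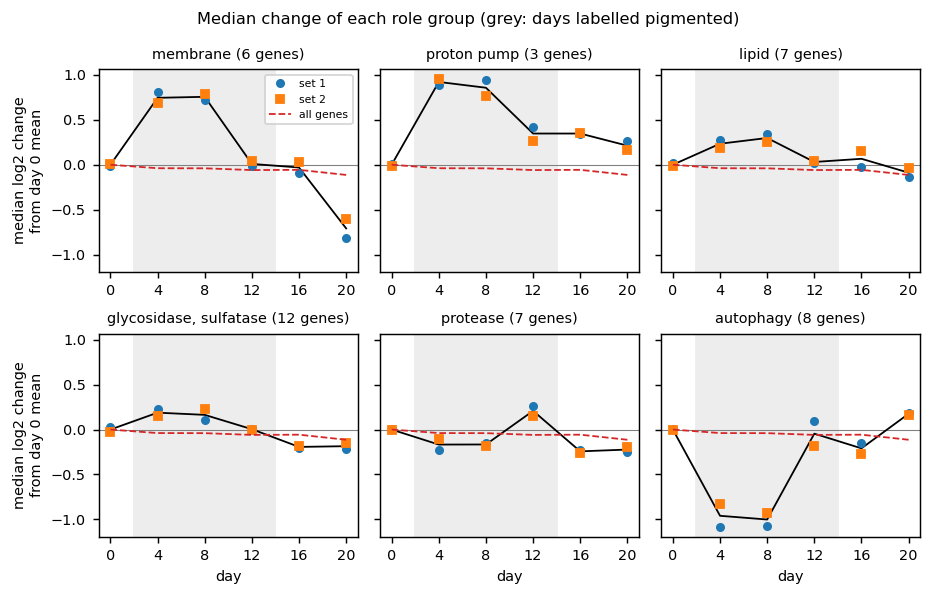
Median over the genes of a role group of the log2 change from the day 0 mean (vertical axis), by day (horizontal axis), with a point per array (circle, set 1; square, set 2), a line through the day means and a dashed red line for the median of all genes tested. On days 4 and 8 the membrane group lay between 0.69 and 0.80, the pump group between 0.77 and 0.96 and the autophagy group between -1.09 and -0.83, under quantile normalization.

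Proteases showed no shared direction. On day 8, 2 of 7 rose and 3 fell (29.3% and 33.9% of all genes), with a median of -0.17. From day 12 to day 16, 4 fell and 0 rose (19.7% and 20.7% of all genes). Ctsa, a serine carboxypeptidase that also protects the enzymes encoded by Glb1 and Neu1, had the widest span of all members on the probes used, at 10.14 and 9.86 on day 0, 8.15 and 8.097 on day 4, 8.17 and 8.26 on day 8, 9.301 and 9.695 on day 12, 9.09 and 8.99 on day 16 and 7.07 and 7.12 on day 20. Day 0 was highest and both day 20 arrays were lowest, with no overlap with any other day. It fell by 1.78 (SE 0.12, adjusted p = 1.52e-11) on day 8 and rose by 1.28 (SE 0.12, adjusted p = 6.26e-09) from day 8 to day 12. Against day 0 it fell by 2.903 (SE 0.12, adjusted p = 3.49e-15) on day 20. Of its 5 detected probes, 3 gave -1.78, -0.78 and -1.16 on day 8 and 2 gave 1.07 and 1.16. The rise from day 8 to day 12 was seen on the brightest probe alone, since the other 4 gave -0.73 to -1.04 and the mean of all 5 was -0.49 (adjusted p = 0.00271). On day 20 against day 0 all 5 were below 0, from -2.90 to -0.18.

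Tpp1, which removes tripeptides from the ends of proteins, was at 8.096 and 8.09 on day 0, 8.88 and 9.14 on day 4, 8.95 and 8.92 on day 8, 8.66 and 8.92 on day 12, 8.14 and 8.27 on day 16 and 6.66 and 6.91 on day 20. Its arrays of days 4, 8 and 12 lay above those of days 0 and 16, and both day 20 arrays lay more than 1 log2 unit below. It rose by 0.84 (SE 0.12, adjusted p = 1.62e-06) on day 8 and fell by 2.15 (SE 0.12, adjusted p = 3.81e-13) on day 20 against day 8. Ctsl, a cysteine endopeptidase, was at 4.75 and 4.69 on day 0, 5.22 and 5.15 on day 4, 5.01 and 4.88 on day 8, 5.13 and 4.99 on day 12, 4.93 and 4.54 on day 16 and 6.29 and 6.21 on day 20. It was near the detection limit on every day but day 20, and was detected on 0 arrays of day 0 and on both of day 20. On day 20 it was at least 2.58-fold higher than on day 0 (adjusted p = 3.27e-08).

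Ctsd, the main aspartic protease of the lysosome, was at 5.91 and 6.28 on day 0, 6.89 and 6.73 on day 4, 6.53 and 6.99 on day 8, 6.82 and 6.88 on day 12, 6.05 and 5.88 on day 16 and 6.24 and 6.51 on day 20. Its 6 arrays of days 4, 8 and 12 stood above those of the other days. It rose by 0.67 (SE 0.17, adjusted p = 0.00157) on day 8 and fell by 0.89 (SE 0.17, adjusted p = 0.000227) from day 12 to day 16. Ctsb, an abundant cysteine protease, varied little, at 13.58 and 13.59 on day 0, 13.35 and 13.48 on day 4, 13.44 and 13.397 on day 8, 13.85 and 13.74 on day 12, 13.33 and 13.32 on day 16 and 13.86 and 14.04 on day 20. It had -0.17 (SE 0.074, adjusted p = 0.0568) on day 8 and rose by 0.37 on day 20, a rise that turned to -0.14 (adjusted p = 0.405) with arrays centred on the median. Ctsh and Ctsz, which trim the ends of proteins, fell by 1.05 and fell by 0.58 on day 8.

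Enzymes that cut sugars and sulfates split in the same way. Of 12, 6 rose and 3 fell on day 8 (29.3% and 33.9% of all genes), with a median of 0.16. On day 20 against day 8, 3 rose and 6 fell (32.9% and 35.4% of all genes), with a median of -0.19. Gusb, which removes glucuronic acid, was at 10.22 and 10.33 on day 0, 11.33 and 11.23 on day 4, 11.27 and 11.23 on day 8, 10.44 and 10.35 on day 12, 10.46 and 10.42 on day 16 and 8.86 and 9.01 on day 20. It was highest on days 4 and 8 and lowest on day 20, with all 4 and both arrays apart from the rest. It rose by 0.98 (SE 0.077, adjusted p = 3.6e-10) on day 8 and fell by 2.32 (SE 0.077, adjusted p = 1.01e-16) on day 20 against day 8. Its 4 detected probes gave -1.60 to -2.54 in the latter comparison. On day 20 against day 0, 1 of them gave 0.18 where the probe used gave -1.345.

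Gaa, which breaks down glycogen, was at 10.03 and 9.98 on day 0, 10.34 and 10.27 on day 4, 10.201 and 10.34 on day 8, 10.62 and 10.38 on day 12, 9.69 and 9.63 on day 16 and 8.63 and 8.63 on day 20. Its day 16 and day 20 arrays fell below all earlier ones, and it fell by 1.37 (SE 0.085, adjusted p = 4.92e-12) on day 20 against day 0. Glb1, which removes galactose, was at 10.51 and 10.41 on day 0, 9.89 and 9.89 on day 4, 9.91 and 9.89 on day 8, 10.04 and 10.17 on day 12, 10.01 and 9.85 on day 16 and 8.93 and 8.71 on day 20. Both day 0 arrays were highest and both day 20 arrays lowest, and it fell by 1.64 (SE 0.087, adjusted p = 4e-13) on day 20 against day 0. This course was seen on the probe used alone. The other detected probe of Glb1, of a lower level, gave 0.059 on day 20 against day 0 and 0.155 against day 8. Man2b1, which removes alpha-linked mannose, fell by 1.203 between days 8 and 20, in the same direction as Gaa, at -1.64, and Glb1, at -1.08, on the probes used.

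Manba, which removes beta-linked mannose, ran opposite to Gusb, at 10.37 and 10.52 on day 0, 9.07 and 9.35 on day 4, 9.16 and 9.08 on day 8, 9.86 and 10.08 on day 12, 10.24 and 10.29 on day 16 and 10.53 and 10.76 on day 20. Its 4 arrays of days 4 and 8 were lowest, and those of day 20 reached the level of day 0 and above under quantile normalization. It fell by 1.32 (SE 0.101, adjusted p = 2.17e-10) on day 8 and rose by 1.52 (SE 0.101, adjusted p = 1.33e-11) on day 20 against day 8. Idua, which cuts the sugar chains of the extracellular matrix, was at 7.397 and 7.25 on day 0, 7.46 and 7.35 on day 4, 7.33 and 7.44 on day 8, 8.13 and 8.09 on day 12, 7.52 and 7.86 on day 16 and 8.53 and 8.597 on day 20. It stayed close to day 0 on days 4 and 8, stood higher on days 12 and 20, and rose by 1.24 (SE 0.12, adjusted p = 6.22e-09) on day 20. Neu1, which removes sialic acid, rose by 0.42 on day 8 and rose by 0.89 on day 20.

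Of the remaining sugar enzymes, Ids and Sgsh, both of heparan sulfate breakdown, rose by 0.66 and rose by 0.38 on day 8, and Galns, a sulfatase of keratan sulfate, fell by 0.68. Hexa, a subunit of the enzyme that breaks down ganglioside, had -0.103 (SE 0.072, adjusted p = 0.228). Gla, which removes the galactose of globosides, was detected on 3 of 12 arrays, at 5.32 and 4.75 on day 0, 4.62 and 4.58 on day 4, 4.69 and 4.64 on day 8, 4.67 and 4.48 on day 12, 4.78 and 4.595 on day 16 and 4.97 and 4.98 on day 20. It was not well above background on most of them, and its arrays of day 0 differed by more than those of any later day.

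In lipid breakdown and cholesterol export, 4 of 7 rose and 2 fell on day 8 (29.3% and 33.9% of all genes), with a median of 0.30. On day 20 against day 8, 2 rose and 4 fell (32.9% and 35.4% of all genes). Ppt1, which removes palmitate from proteins, was at 6.15 and 5.93 on day 0, 7.604 and 7.39 on day 4, 7.502 and 7.47 on day 8, 6.55 and 6.86 on day 12, 7.11 and 6.93 on day 16 and 5.79 and 5.996 on day 20. It was highest on days 4 and 8, close to the day 0 level on day 20, and rose by 1.45 (SE 0.15, adjusted p = 1.87e-08) on day 8. That was the steepest rise of any member on the probes used, while other probes of Asah1, Atp6v0d1 and Gusb gave up to 2.90, 2.65 and 2.40. Lipa, the acid lipase that frees cholesterol from its esters, alternated, at 12.11 and 12.32 on day 0, 10.82 and 10.96 on day 4, 10.85 and 10.84 on day 8, 12.23 and 12.24 on day 12, 11.11 and 11.15 on day 16 and 12.08 and 12.26 on day 20. Days 0, 12 and 20 were high and days 4, 8 and 16 low, without overlap. It fell by 1.37 (SE 0.08, adjusted p = 2.87e-12) on day 8 and rose by 1.395 (SE 0.08, adjusted p = 7.41e-12) from there to day 12. It then fell by 1.11 (SE 0.08, adjusted p = 6.15e-10) by day 16 and rose by 1.04 (SE 0.08, adjusted p = 2.08e-10) by day 20.

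Asah1, which breaks down ceramide, was at 11.53 and 11.48 on day 0, 12.19 and 12.17 on day 4, 12.19 and 12.08 on day 8, 12.36 and 12.35 on day 12, 12.27 and 12.12 on day 16 and 11.59 and 11.55 on day 20. On this probe its 8 arrays of days 4 to 16 lay above those of days 0 and 20, and it rose by 0.63 (SE 0.07, adjusted p = 6.66e-08) on day 8. Another probe of Asah1, detected on 12 arrays, gave 2.90 on day 8 and was still at 2.30 on day 20 against day 0. The return to the day 0 level was thus seen on the probe used alone. Grn, the precursor of the granulins, was at 10.68 and 10.64 on day 0, 10.93 and 10.85 on day 4, 10.997 and 10.91 on day 8, 9.99 and 10.19 on day 12, 10.64 and 10.81 on day 16 and 9.31 and 9.32 on day 20. It was lowest on day 20 and fell by 1.34 (SE 0.082, adjusted p = 3.86e-12) there. It was among the 3 members that rose from day 12 to day 16, by 0.64, with Manba and Lamp1. Npc1, which exports cholesterol, rose by 0.68 on day 8 on the probe used, while another probe, detected on 12 arrays, gave -0.435. On that day its soluble partner Npc2 had -0.13 (SE 0.088, adjusted p = 0.204). Psap, the precursor of the saposins that present lipids to hydrolases, fell by 0.795.

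More autophagy genes fell than rose on days 4 and 8, while more pump and membrane genes rose than fell. Of the 8 members 5 fell and 2 rose on either day, with medians of -0.96 and -1.001. Of all 38 measured autophagy genes, 22 fell and 6 rose on day 4. On day 8, 21 fell and 7 rose, and the medians were -0.47 and -0.42. Among all genes, 34% fell and 29.5% rose on day 4, and 33.9% fell and 29.3% rose on day 8. Over the normalizations, probe rules and set numbers tried, between 18 and 23 of the 38 fell on day 4 and between 17 and 24 on day 8, the fewest with arrays centred on the median. Ulk1, the kinase that starts autophagosome formation, was at 8.84 and 8.75 on day 0, 7.595 and 7.61 on day 4, 7.62 and 7.61 on day 8, 8.29 and 8.33 on day 12, 8.32 and 8.37 on day 16 and 9.15 and 9.08 on day 20. Its 4 arrays of days 4 and 8 were lowest and both of day 20 highest, with no overlap. With arrays centred on the median, day 20 did not stand above day 0, at -0.045 (adjusted p = 0.827). It fell by 1.18 (SE 0.092, adjusted p = 3.51e-10) on day 8 and rose by 1.503 (SE 0.092, adjusted p = 3.73e-12) on day 20 against day 8.

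Wipi1, which binds the lipid made at the forming autophagosome, was at 9.08 and 9.06 on day 0, 7.795 and 7.72 on day 4, 7.58 and 7.79 on day 8, 9.04 and 9.06 on day 12, 9.05 and 9.11 on day 16 and 9.08 and 9.23 on day 20. On this probe it stood low on the 4 arrays of days 4 and 8 and close to day 0 on all others. It fell by 1.39 (SE 0.095, adjusted p = 3.64e-11) on day 8 and rose by 1.37 (SE 0.095, adjusted p = 1.2e-10) from day 8 to day 12, and its 3 probes gave -1.39, -1.52 and -2.30 on day 8. The second brightest stayed below day 0, at -1.04 on day 12, -0.696 on day 16 and -0.81 on day 20. With the mean of all probes Wipi1 was lower than on day 0 on days 16 and 20, at -0.28 (adjusted p = 0.0199) and -0.27 (adjusted p = 0.0151).

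Of the small ubiquitin-like proteins that are attached to the autophagosome membrane, Map1lc3a was at 8.37 and 8.27 on day 0, 6.41 and 6.89 on day 4, 6.18 and 6.72 on day 8, 7.61 and 7.97 on day 12, 7.16 and 7.47 on day 16 and 7.76 and 8.21 on day 20. It was lowest on days 4 and 8, with a wider gap between the arrays of a day than most members had. It fell by 1.87 (SE 0.19, adjusted p = 1.51e-08) on day 8 and rose by 1.54 (SE 0.19, adjusted p = 2.1e-07) on day 20 against day 8. Its relative Map1lc3b was at 8.54 and 8.93 on day 0, 7.52 and 8.21 on day 4, 7.701 and 7.82 on day 8, 7.56 and 7.85 on day 12, 7.97 and 8.11 on day 16 and 7.81 and 8.36 on day 20, below day 0 on every later day, and fell by 0.98 (SE 0.19, adjusted p = 9.33e-05) on day 8 and fell by 1.04 (SE 0.19, adjusted p = 7.87e-05) on day 12.

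Gabarapl1, of the same family, was at 10.38 and 10.37 on day 0, 9.39 and 9.24 on day 4, 9.27 and 9.43 on day 8, 10.58 and 10.79 on day 12, 10.11 and 10.11 on day 16 and 11.22 and 11.28 on day 20. Its low arrays were again those of days 4 and 8, and its high ones those of day 20. It fell by 1.03 (SE 0.084, adjusted p = 6.92e-10) on day 8 and rose by 1.902 (SE 0.084, adjusted p = 1.42e-14) on day 20 against day 8. That was the steepest rise of any member in that comparison on the probes used. Gabarapl2 had -0.095 (SE 0.24, adjusted p = 0.757) on day 8, with arrays of a day farther apart than those of other members. Its other detected probe, of a similar level, gave -0.91 on day 4 and -1.104 on day 8, so the probes of Gabarapl2 disagree.

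Sqstm1, the receptor that carries ubiquitin-tagged cargo into autophagosomes and is itself broken down there, went the other way, at 12.23 and 12.24 on day 0, 13.46 and 13.36 on day 4, 13.46 and 13.43 on day 8, 13.56 and 13.61 on day 12, 12.81 and 12.903 on day 16 and 12.61 and 12.64 on day 20. Days 4, 8 and 12 were high on all 6 arrays, above every array of the other days. It rose by 1.21 (SE 0.067, adjusted p = 1.24e-12) on day 8 and rose by 1.35 (SE 0.067, adjusted p = 6.91e-13) on day 12 against day 0. From day 12 to day 16 it fell by 0.73 (SE 0.067, adjusted p = 2.11e-08). Becn1, of the lipid kinase complex that marks the forming membrane, rose by 0.44 on day 8 and fell by 0.37 on day 20, where another probe of it gave 0.69.

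Among the autophagy genes that are no members, Bnip3l, a receptor for mitochondria, fell by 1.95 (SE 0.082, adjusted p = 1.38e-14) on day 8, and Calcoco1, a receptor for the endoplasmic reticulum, fell by 1.78 (SE 0.15, adjusted p = 1.17e-09). On day 20 against day 8, 18 of 38 autophagy genes rose and 9 fell under quantile normalization (32.9% and 35.4% of all genes). With arrays centred on the median, 12 rose and 14 fell, so the counts held no direction under both scalings. The group's median was then 0.016, where that of all genes was -0.286. Under quantile normalization these medians were 0.353 and -0.044. Rb1cc1, a scaffold of the Ulk1 complex, is among the 18, but it was detected on 2 arrays alone, both of day 20, and so could pass the detection filter only by being high there. Ambra1, a regulator of the Becn1 complex, rose by 1.55 (SE 0.101, adjusted p = 1.09e-11).

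**Figure D3:**
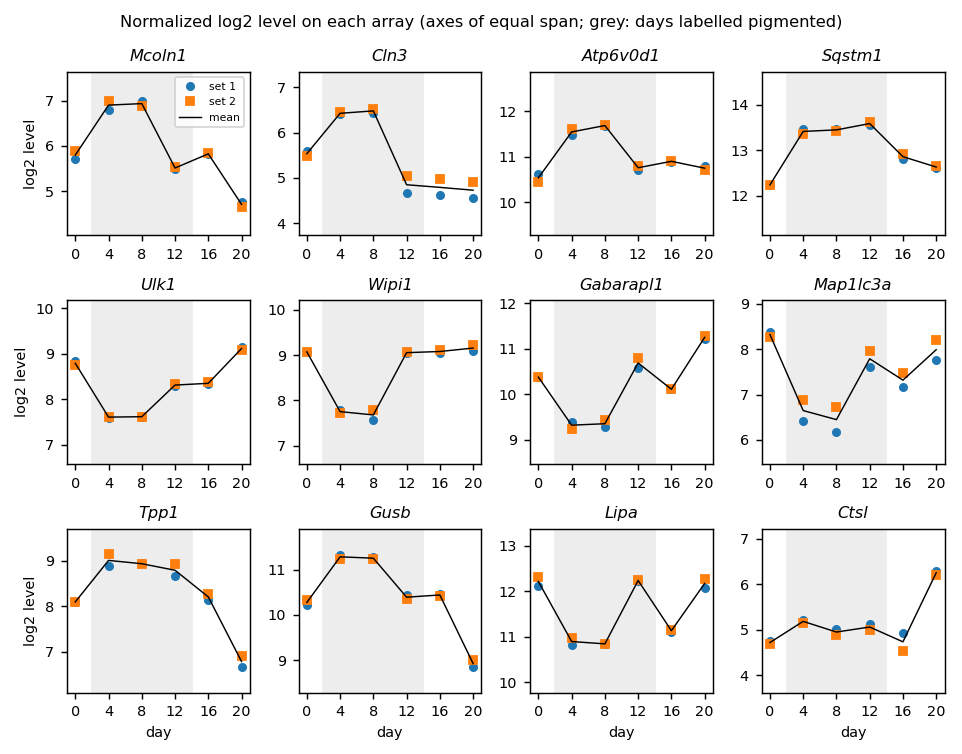
Normalized log2 level (vertical axis, the same span in every panel) of 12 members on each array by day (circle, set 1; square, set 2; line, mean of the day; grey, days labelled pigmented). Mcoln1, Cln3 and Atp6v0d1 are high and Ulk1, Wipi1, Gabarapl1 and Map1lc3a low on days 4 and 8, Tpp1 and Gusb are lowest and Ctsl highest on day 20, and Lipa alternates.

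Further lists describe delivery to the lysosome. The shares of all genes beside them were 29.3% up and 33.9% down on day 8. On day 20 against day 8 they were 32.9% up and 35.4% down. Of 11 genes that sort lysosomal enzymes, 6 rose and 1 fell on day 8, with a median of 0.36, and on day 20 against day 8, 2 rose and 7 fell, with a median of -0.68. Gnptg, a subunit of the enzyme that builds the mannose phosphate tag, fell by 1.67 (SE 0.081, adjusted p = 8.98e-14) on day 20 against day 0. Of 13 genes that fuse autophagosomes with lysosomes, 6 rose and 3 fell on day 8, and 4 rose and 8 fell on day 20 against day 8. Vps33a, a subunit of the tethering complexes whose mutation lightens coat colour in mice, fell by 2.17 (SE 0.088, adjusted p = 3.58e-15) in that comparison. Of 20 other hydrolases and cofactors, 6 rose and 8 fell on day 8 (30% and 40%). On day 20 against day 8, 7 rose and 9 fell (35% and 45%), so this list lay near the shares of all genes.

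**Figure D4:**
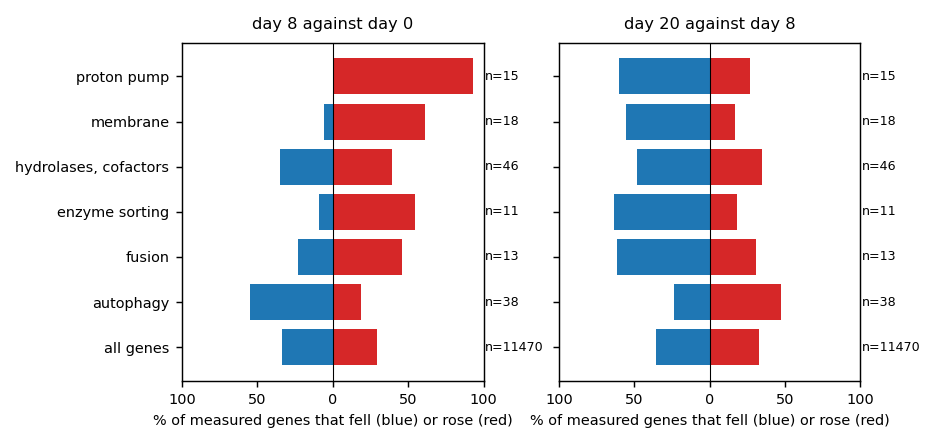
Share of the measured genes of each list, members and other pathway genes together, that rose (red, right) or fell (blue, left) in % (horizontal axis), on day 8 against day 0 and on day 20 against day 8, with the number measured (n) and all genes tested at the bottom. On day 8, 14 of 15 pump genes rose and 21 of 38 autophagy genes fell. On day 20 against day 8, 18 autophagy genes rose and 9 fell. With arrays centred on the median, which put the median of all genes at -0.286, these were 12 and 14.

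Tfeb, a regulator of lysosomal genes, was at 5.59 and 5.86 on day 0, 5.37 and 5.32 on day 4, 5.14 and 5.48 on day 8, 5.02 and 4.94 on day 12, 5.62 and 4.83 on day 16 and 5.35 and 5.34 on day 20. No day stood apart, since the arrays of day 16 spanned most of the others. It fell by 0.74 (SE 0.204, adjusted p = 0.00418) on day 12 and fell by 0.501 (SE 0.204, adjusted p = 0.0491) on day 16, and its change over the 6 days missed the threshold (adjusted p = 0.0533). The day 16 call was lost without either array of day 0, 4 or 12, or without set 2 of day 16, among others. Mitf, its relative and the master regulator of pigment cells, was at 8.31 and 8.34 on day 0, 9.73 and 9.75 on day 4, 9.94 and 9.78 on day 8, 7.22 and 6.83 on day 12, 8.704 and 8.77 on day 16 and 6.55 and 6.26 on day 20. It rose by 1.54 (SE 0.12, adjusted p = 3.3e-10) on day 8 and fell by 2.84 (SE 0.12, adjusted p = 7.27e-14) from day 8 to day 12. It then rose by 1.71 (SE 0.12, adjusted p = 3.78e-10) by day 16 and fell by 2.33 (SE 0.12, adjusted p = 2.84e-13) by day 20.

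Set beside Mitf, members that carry the motif had the following changes in the same comparisons, which share their arrays. From day 8 to day 12, when Mitf fell by 2.84, Mcoln1 fell by 1.42, Cln3 fell by 1.63 to near its detection limit and Atp6v0d1 fell by 0.93. Ctsd had 0.09 (SE 0.17, adjusted p = 0.688) and Atp6v1a 0.042 (SE 0.092, adjusted p = 0.74), and Ctsa rose by 1.28 on the probe used while its other 4 probes were below 0. Members with neither form of the motif in their windows also moved between days 8 and 12. Grn had -0.87, Gusb -0.86, Ppt1 -0.785 and Lipa 1.395. Of all 44 measured members, 15 rose and 11 fell. Whether carriers differed from the other members was not tested. From day 12 to day 16, when Mitf rose by 1.71, Mcoln1 had 0.31 (SE 0.15, adjusted p = 0.0977) and Atp6v0d1 0.14 (SE 0.076, adjusted p = 0.151). In that step Ctsa fell by 0.46 on the probe used, while its other 4 probes were above 0, Ctsd fell by 0.89 and Atp6v1a fell by 0.41. Gla, the other carrier, was detected on 0 arrays of days 8, 12 and 16, and Cln3 on 1 array each of days 12 and 16, so no difference is read for them there. Tfe3, the other relative, had -0.38 (SE 0.13, adjusted p = 0.0153) on day 8 and 0.61 (SE 0.13, adjusted p = 0.000344) on day 20 against day 8. Rragd, a GTPase that helps place the growth kinase complex on the lysosome, rose by 0.495 (SE 0.087, adjusted p = 3.73e-05) on day 8 and rose by 0.998 (SE 0.087, adjusted p = 1.32e-09) on day 20 against day 0. Sesn2, a sensor of leucine that restrains that complex, rose by 1.88 (SE 0.13, adjusted p = 7.46e-11) on day 8 and rose by 2.36 (SE 0.13, adjusted p = 1.2e-12) on day 20 against day 0.

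Comparing the labels pigmented and depigmented, 6 arrays of days 4, 8 and 12 were set against 6 of days 0, 16 and 20, in a model whose spread includes that between days. Here 13 members were higher in the pigmented arrays and 4 lower, against 7.73% and 9.16% of all genes, with a median of 0.15 for members and 0.001 for all genes. Under median centring the counts were 15 and 3, where 1809 of 11470 genes were called. The medians were then 0.40 for members and 0.115 for all genes. Sqstm1 was higher by 0.91 (SE 0.12, adjusted p = 0.000552), and Tpp1 by 1.22 (SE 0.28, adjusted p = 0.0122). Sqstm1 ranged from 13.36 to 13.61 (median 13.46) in the pigmented arrays and from 12.23 to 12.90 (median 12.63) in the depigmented ones. On the probes used, Ctsd, Tpp1, Gaa, Ids, Sqstm1 and Becn1, which were higher, and Manba, which was lower, did not overlap between the groups. That is 6 members above and 1 below, of 44, where 4.27% of all genes lay above and 4.89% below without overlap. Gusb, Ulk1 and Wipi1 passed the test with overlapping groups, at 1.09, -0.91 and -0.94.

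The count of 17 members in that comparison rested on few arrays. It was 8 without set 1 of day 4 or without set 2 of day 8, 9 without set 2 of day 4 or without set 1 of day 8, and 11 without set 1 of day 0 or without set 2 of day 20. The arrays of a day entered as separate samples although they were nearly alike, so p-values over arrays are too small for a statement about days. Mcoln1 and Cln3, which rose on days 4 and 8 and not on day 12, had 1.003 (SE 0.34, adjusted p = 0.0604) and 0.898 (SE 0.34, adjusted p = 0.0875) in this comparison.

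Different probes of a gene did not always agree. Of 44 members 18 had 1 detected probe and 26 had several, 86 detected probes in all. Among the 26, all probes had the same sign on day 8 in 23 and some were opposite in 3, and on day 20 against day 0 in 18 and 8. The brightest probe was used throughout. For Atp6v0d1 it gave 1.15 on day 8, and the other 3 gave 1.21, 2.16 and 2.65. With the mean of all detected probes, Lamp2 was at 0.78 on day 4 and 0.85 on day 8 (adjusted p = 2.78e-07 and 1.15e-07), and Ctsa was at -0.49 from day 8 to day 12 (adjusted p = 0.00271).

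**Figure D5:**
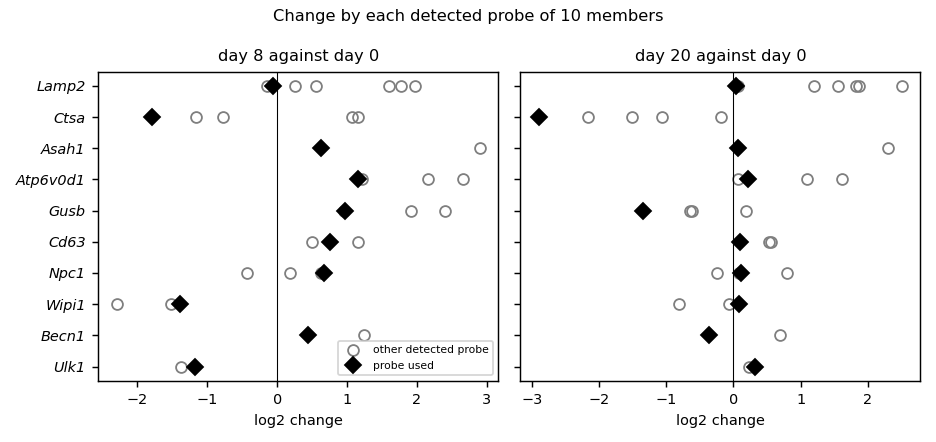
Log2 change (horizontal axis) of every detected probe of 10 members on day 8 and on day 20 against day 0 (filled diamond, the probe used; open circle, another detected probe). Lamp2, Ctsa and Npc1 hold probes on both sides of 0 on day 8, and all probes of Wipi1 and Ulk1 lie below 0 on that day, while on day 20 both of Ulk1 lie above 0 and those of Wipi1 on either side.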

How the data were processed

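For each of 45281 probes and 12 arrays, the deposited signals were a linear intensity and a detection p-value, per the file headers. A deposited value table held intensity values that were a straight-line transform of the same signals, found from the values, with column means of 280.64 and column medians of 6.26 to 8.71. The set numbers of 6 arrays (days 4, 12 and 20) were exchanged between the tables, and those of the signal table were used. Upstream software was not given in the sources used here.

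Signals were background corrected and quantile normalized with neqc (offset 16, background estimated from the detection p-values, which implied 936 negative controls) in limma 3.58.1, R 4.3.3. Of 22978 probes detected on at least 2 arrays, 19120 carried 1 gene symbol and the others were left out. RefSeq names updated 0 symbols. The brightest detected probe, by its mean over 12 arrays, stood for a gene. Changes are log2 differences with SE, n = 2 arrays per day. They were tested with lmFit and eBayes with an intensity trend, day as a factor over all arrays, two-sided, with Benjamini-Hochberg adjustment at 0.05 within each comparison. A model of 2 groups served the pigmentation labels. The procedure was tested on simulated data.

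Members and lists were chosen with earlier results of these data known. Members are all accounted for. Values on every array are given for the members with the largest changes in a comparison, about 3 a direction, and for Tfeb, Sqstm1, Lamp1, Lamp2, Ctsb, Ctsd, Ctsl and Gla. Other pathway genes are named where among the 3 largest changes in a direction, with Mitf, Tfe3 and Rragd. Counts that join members with other genes of a role were added after the data were seen. Same-numbered arrays deviated together with correlations of -0.029 to 0.27 over genes (median 0.11), so set numbers were not taken to pair arrays. Alternatives were other normalizations, no background correction, no detection filter, all probes of a gene, the value table, the density label or the set number as a term, and leaving out each array.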

Additional observations from a re-analysis of the deposited data

Results flagged for a closer look

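Among the 6 arrays labelled depigmented, the day 20 array of set 2 stood apart for Wipi1, at a log2 level of 9.226 where the nearest other array was at 9.11, a gap of 0.649 of the range of the group. The group holds 3 days, and chance flags about 1 in 20 such groups.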

How the results depend on the processing

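Of 288 member calls over the 11 comparisons between days or labels, 182 stayed past the threshold in the same direction under every alternative run. Centring arrays on their median in place of quantile normalization left 21 members called on day 12 against day 0 (32 before) and 17 on day 16 (27 before). Of all 11470 genes it left 4527 called on day 12 (6000 before) and 3990 on day 16 (5455 before). Under that scaling some values changed sign. Against day 0, Hexa was at 0.024 on day 4, and on day 20 Ctsb was at -0.14, Lamp2 at -0.45, Cd63 at -0.37, Atp6v0d1 at -0.18, Sqstm1 at -0.032 and Ulk1 at -0.045. From day 8 to day 12, Hexa was at -0.15, Gaa at -0.061, Asah1 at -0.15 and Lamp2 at -0.069. On day 20, Lamp2 was at -0.062 against day 16, and against day 8 Ctsb was at -0.063, Ctsz at -0.30, Neu1 at -0.095, Psap at -0.29, Lamp2 at -0.59 and Atp6v1h at -0.35.

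With the mean of all detected probes of a gene, other values changed sign. Against day 0, Lamp2 was at 0.78 on day 4, 0.85 on day 8 and 0.40 on day 16. On day 16 Gaa was at 0.016, Wipi1 at -0.28 and Becn1 at 0.67, and on day 20 Wipi1 was at -0.27 and Becn1 at 0.16. From day 8 to day 12, Ctsa was at -0.49, Lamp2 at -0.054 and Atp6v1h at -0.32. Ctsa was at 0.26 from day 12 to day 16, and from day 16 to day 20 Sgsh was at -0.013 and Npc1 at 0.049. The cause was not tested for either setting.

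Leaving out 1 array at a time gave 8 to 22 members between the pigmentation labels (17 with all arrays). Ranges for the other comparisons were 33 to 38 on day 4, 31 to 35 on day 8, 25 to 32 on day 12, 20 to 27 on day 16 and 22 to 28 on day 20, each against day 0. Counts of all genes in the fits without 1 array are not given here. With the set number as a replicate block, 38 members were called on day 4, 35 on day 8 and 30 on day 20 against day 0. Of all 11470 genes, 7443, 7417 and 7958 were called there. Between the pigmentation labels 13 members were called (1500 of all genes), or 12 (1430) with the set numbers of the value table. The set numbers are not taken to pair the arrays, so these counts are given here alone. Weak probes limit what can be read of Gla, Ctsl, Cln3, Mcoln1 and Tfeb, which were detected on 3, 8, 9, 10 and 11 of 12 arrays.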
